A study of Mus musculus with 10 samples.

Results

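The genes described here are the ribosomal protein genes and their copies, measured in whole kidneys of mice that had lost Stk11 (Lkb1) in tubule cells and of control littermates. Members were chosen by name. A gene entered where the array platform's annotation gave its probe set a single symbol made of Rpl, Rps or Rplp followed by a digit, or Rpsa, and Rps6k kinase genes were left out. The rule found 246 of the 30143 genes measured. Parents, whose symbols carry no -ps or -rt, made up 45 of them and copies 201, all with -ps and 0 with -rt. The parents fell into 33 core genes of the ribosome itself and 12 others: paralogues such as Rps27l, -like symbols such as Rpl32l, the retrogene Rps23rg1 and Rps19bp1, whose product binds a ribosomal protein. The family was proposed with its knockout and control values in view, so the differences below describe the members and test nothing about the family.

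The study took kidneys from 5 knockout and 5 control mice, each 5 weeks old, and hybridised 1 array per kidney. Knockout mice carried floxed Lkb1 and the KspCre transgene, Tg(Cdh16-cre), in which the promoter of the kidney cadherin gene Cdh16 drives Cre recombinase in tubule epithelium. Controls were littermates with 1 or both Lkb1 alleles floxed and no KspCre. An effect of Cre itself cannot be told apart from the loss of Lkb1, because no control carried it. The strain is given as C57Bl/6N although the floxed line had a mixed background, and sex is not given. Sample titles call the knockout a knockdown, and the design text speaks of MDCK cells, a dog kidney line, whereas every sample is labelled as mouse kidney. The growth protocol's account of a Cre knockout is followed here. Non-tubule cells of a knockout kidney keep the gene.

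Ribosomal proteins are the protein subunits of the machine that translates mRNA. Those named Rpl and Rplp belong to the large subunit and those named Rps and Rpsa to the small one. Their genes are among the most strongly transcribed in any cell, and their mRNAs have been reverse-transcribed back into the mouse genome many times over, which left numerous processed pseudogenes, the -ps copies. Many ribosomal protein mRNAs begin with a terminal oligopyrimidine (TOP) tract, a C followed by a run of C and T, through which the kinase complex mTORC1 controls their translation. LKB1 activates the kinase AMPK, which restrains mTORC1. The arrays measured amounts of RNA and not translation.

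The start regions of 8 core parents are shown because each holds a run of C and T of the kind that makes up a TOP tract. A tract was counted where a C was followed by at least 6 bases that are each C or T, on the sense strand and within 30 bases of the annotated gene start on either side. Sequences are RefSeq's, build GRCm38.p6, 5′ to 3′ along the gene, with the longest tract in capitals and its flanking bases in lower case. The first 4 belong to parents with large differences between knockout and control and the last 4 to parents with small ones. Counted from the annotated first base, the tracts began at -19, -20, -7, -9, 14, -18, 22 and -17, in the order below. None thus began at that base, negative positions lying upstream of it. Whether any of these tracts opens the mRNA was not tested.
Rps15: gaggcgggCCCTCCCggcagagctcgcgat
Rpl39: tcatccatCCCCCCCTaagctccgcctcta
Rpl35: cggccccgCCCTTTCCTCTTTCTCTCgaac
Rpl10a: tggtggcgCCCCCCCagcggccgcaaactg
Rpl11: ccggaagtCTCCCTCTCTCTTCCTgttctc
Rpl31: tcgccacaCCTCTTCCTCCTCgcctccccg
Rps7: tgtccccaCCTCTTTTCTTCCgccacccgg
Rpl4: tgacaagtCTTTCCTTTTCCTgtgggagca
The stretches lie at chr10:80292404-80292433 for Rps15, chrX:37085221-37085250 for Rpl39, chr2:39005117-39005146 for Rpl35, chr17:28328454-28328483 for Rpl10a, chr4:136053358-136053387 for Rpl11, chr1:39367825-39367854 for Rpl31, chr12:28635910-28635939 for Rps7 and chr9:64173362-64173391 for Rpl4. Rps15, Rpl10a, Rpl31 and Rpl4 run along the plus strand and the other 4 along the minus strand. A tract was present in 17 of the 28 core parents with a start region in the table (60.7%), against 29.7% of the 27025 genes with one. Higher in knockout kidneys at an adjusted p under 0.05 were 8 of the 17 parents with a tract and 2 of the 11 without, beside 5.35% of all genes, a count from which nothing is read. Their median log2 differences were 0.14 with a tract and 0.11 without. Tracts stood in parents with large and in parents with small differences: of the 8 shown, the longest were those of Rpl35 (18 bases) and Rpl11 (16 bases).

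Each value is a log2 RMA value, the background-corrected, normalised and summarised brightness of a probe set that the authors deposited, averaged over the probe sets of a gene. It ranks kidneys for 1 gene but not genes for 1 kidney. Differences are knockout minus control on the log2 scale with their standard error (SE) from limma, a linear model fitted across all 30143 genes, and a gene counts as past the threshold where its Benjamini-Hochberg adjusted p lies under 0.05. Over all genes 8.03% were past it, 1614 higher in knockout kidneys (5.35%) and 806 lower (2.67%), 66.7% of calls being higher, or 55.5% of 1619 higher and 1300 lower after quantile normalization. The median difference over all genes was -0.03. Stk11 averaged 9.18 ± 0.10 in knockout and 9.43 ± 0.03 in control kidneys (SD, n = 5 each), or 84.1% of the control level (log2 difference -0.25, limma adjusted p = 0.0075), with every knockout kidney below every control kidney. Nothing in the labels says more about the replicates than that each came from a separate mouse. Array quality, as the area under the curve between positive and negative controls, was 0.895 to 0.900 in knockout and 0.888 to 0.896 in control kidneys.

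Of the 246 members, 131 were past the threshold in the higher direction, beside 5.35% of all genes, and 0 in the lower direction, beside 2.67% (8.03% for both directions), with 1 lower at an unadjusted limma p under 0.05. The count comes from the contrast in view of which the family was proposed, and nothing is read from it. Differences were above 0 for 226 members, with a median of 0.22. In 120 members all 5 knockout kidneys lay above all 5 controls, beside 5.07% of all genes. In 1 member, Rpl7a-ps9, they lay below all 5 controls, beside 3.5% of all genes. Just inside the threshold was Rpl17-ps1 (0.20 ± 0.06 SE) and just outside it Rps24 (0.21 ± 0.06 SE). When each array was left out in turn, 90 of the 131 stayed past the threshold in all 10 fits, and 93 stayed past it without control 3, the fewest. After quantile normalization 114 of the 131 stayed past it, and with each array centred on its own median 94 did.

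**Figure D1:**
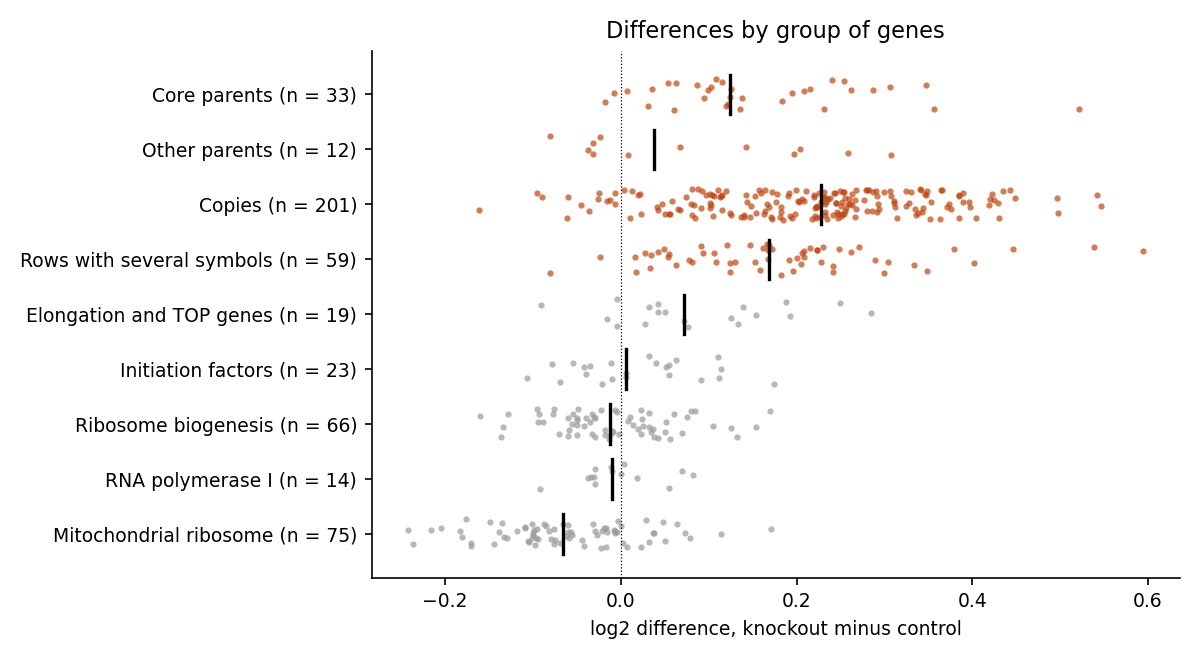
Log2 difference (knockout minus control) for each gene in groups of ribosomal protein genes (orange) and in lists of other translation genes (grey); black bars mark medians and the vertical spread within a row carries no meaning. Core parents (median 0.12), copies (0.23) and probe sets with several symbols (0.17) lie mostly right of 0, whereas ribosome biogenesis and RNA polymerase I genes (both -0.01) and mitochondrial ribosomal proteins (-0.07) do not.

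Parents of the large subunit spanned differences of -0.08 to 0.52. Of 25, 7 were past the threshold, all higher (5.35% of all genes), and the median was 0.10. Rpl12 (chromosome 2, 32961712 to 32964045), whose product forms part of the stalk base where translation factors dock, had the largest. Its log2 values were 11.51, 11.66, 11.71, 11.47 and 11.41 in the 5 knockout kidneys, against 10.86, 11.04, 10.96, 11.21 and 11.10 in the 5 controls. The lowest knockout kidney thus exceeded the highest control, and the difference was 0.52 ± 0.07 (SE), a fold of 1.44.

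Rpl39, which lines the exit tunnel for nascent protein, measured 8.98, 9.12, 9.19, 9.07 and 8.96 in knockout kidneys, against 8.55, 8.75, 8.65, 8.84 and 8.80 in controls, a difference of 0.35 ± 0.06 (SE). Rpl35, another protein near the tunnel exit, measured 10.44, 10.55, 10.56, 10.45 and 10.46 in knockout kidneys, against 10.06, 10.22, 10.17, 10.27 and 10.21 in controls, a difference of 0.31 ± 0.05 (SE). Neither gene's groups overlapped. Rpl10a, of the mobile stalk beside the exit site for tRNA, ran from 8.89 through a median of 9.04 to 9.06 in knockout kidneys, against 8.60 through 8.74 to 8.89 in controls. Its lowest knockout kidney (knockout 1) lay just above its highest control (control 4), both 8.89 when rounded, and the difference was 0.26 ± 0.06 (SE). Rpl10a was no longer past the threshold without knockout 2. Rpl38 (0.25), whose loss alters the axial skeleton of mice, and Rpl19 (0.23) were also past the threshold, Rpl38 not without control 3, knockout 2 or knockout 3. The -like gene Rpl32l had a difference of 0.31.

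Other large-subunit parents stood close to 0. Rplp0, the stalk protein on which the acidic P proteins assemble and a common reference gene, measured 10.40, 10.41, 10.44, 10.36 and 10.36 in knockout kidneys, against 10.37, 10.34, 10.42, 10.48 and 10.39 in controls. Rpl11, which under ribosome stress can bind the p53 regulator Mdm2, measured 7.24, 7.24, 7.30, 7.17 and 7.13 in knockout kidneys, against 7.26, 7.20, 7.26, 7.25 and 7.19 in controls. The groups of both genes overlapped throughout, with differences of -0.01 ± 0.04 and -0.02 ± 0.04 (SE). Rpl4, with 12.53, 12.59, 12.61, 12.57 and 12.54 in knockout kidneys, against 12.54, 12.51, 12.48, 12.54 and 12.47 in controls, had a difference of 0.06 ± 0.04 (SE). Rpl8 (0.05) and Rpl41 (0.06) were likewise not past the threshold.

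Every one of the 20 small-subunit parents had a difference above 0 (11523 of all 30143 genes), from 0.01 to 0.36, and 8 were past the threshold in the higher direction (5.35% of all genes), with a median of 0.13. Rps15 (chromosome 10, 80292431 to 80294114), a protein of the subunit's head, measured 9.15, 9.29, 9.30, 9.25 and 9.13 in knockout kidneys, against 8.84, 8.87, 8.75, 8.96 and 8.93 in controls. The groups did not overlap, with a difference of 0.36 ± 0.05 (SE), a fold of 1.28. Rps20, also of the head, measured 8.34, 8.52, 8.67, 8.33 and 8.44 in knockout kidneys, against 8.08, 8.17, 8.22, 8.25 and 8.16 in controls. Rps29 measured 10.25, 10.35, 10.38, 10.26 and 10.30 in knockout kidneys, against 9.91, 10.12, 10.05, 10.17 and 10.10 in controls. No control reached a knockout kidney in either gene, and their differences were 0.29 ± 0.06 and 0.24 ± 0.05 (SE).

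Rps3a1 had a difference of 0.22 ± 0.05 (SE), past the threshold except without control 3 or knockout 2. Rps10 (0.18) and Rps26 (0.14), whose human counterparts are mutated in some families with Diamond-Blackfan anaemia, were past it too, Rps26 in only 3 of the 10 fits that left out an array. The Rps3a-like genes Rps3a3 (0.26) and Rps3a2 (0.20) are pseudogenes in RefSeq, and Rps3a2 was also past the threshold in only 3 of those 10 fits. Rps7, with 11.55, 11.58, 11.63, 11.52 and 11.53 in knockout kidneys, against 11.60, 11.55, 11.49, 11.56 and 11.43 in controls, differed by 0.04 ± 0.04 (SE). Rpsa, which doubles as a laminin receptor, measured 9.53, 9.65, 9.59, 9.53 and 9.54 in knockout kidneys, against 9.74, 9.52, 9.49, 9.55 and 9.38 in controls. Control 1 was its highest kidney of all 10, and the difference was 0.03 ± 0.06 (SE). Rps9 differed by 0.09 and the dim probe sets of Rps28 and Rps18 by 0.11 and 0.12, none of them past the threshold.

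**Figure D2:**
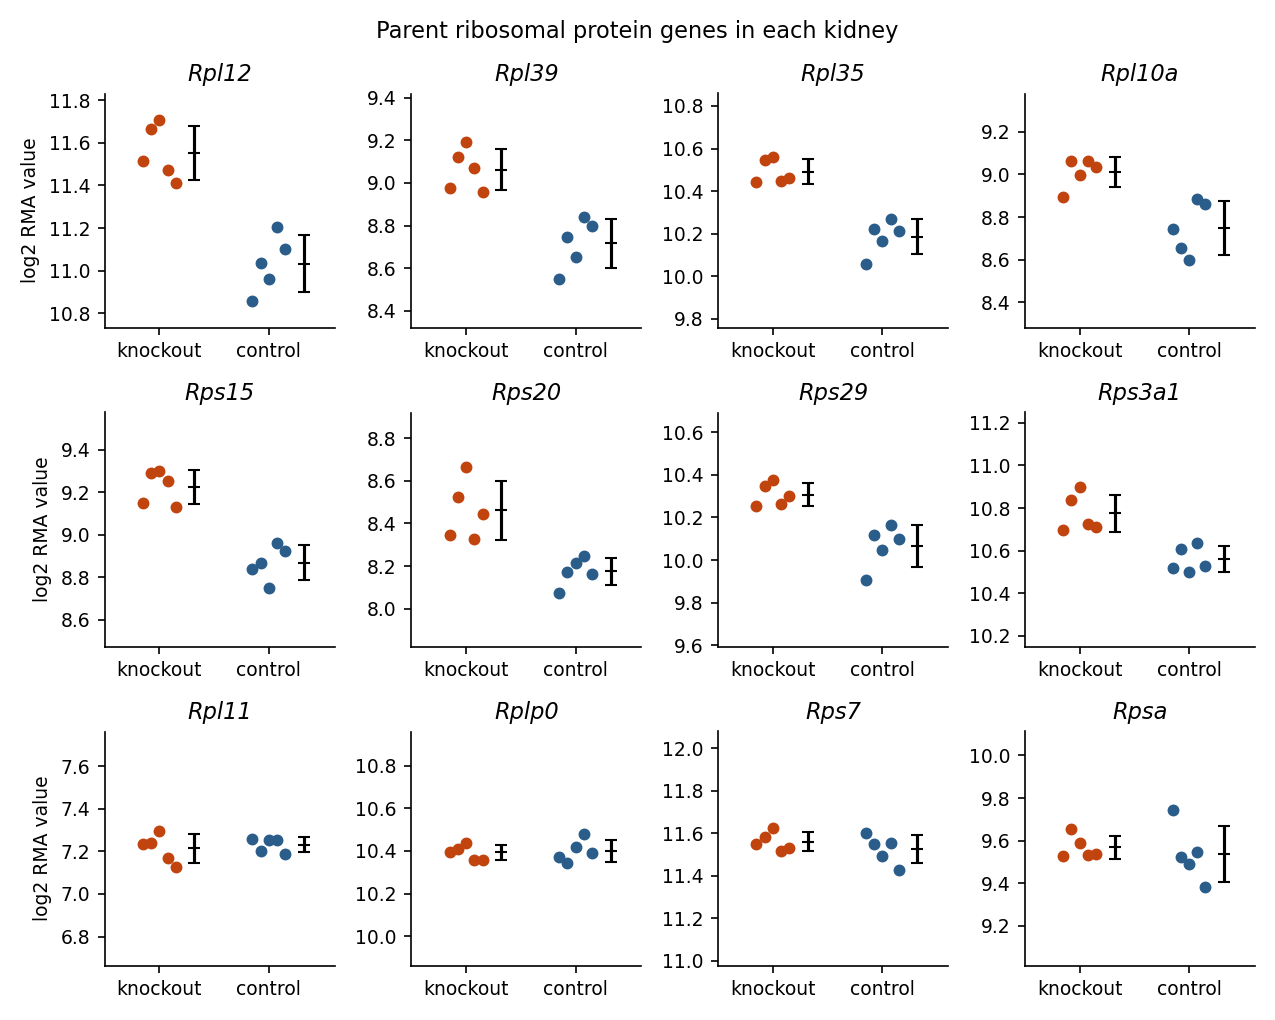
Log2 RMA value of 12 parents in each kidney, knockout (orange) left of control (blue); each axis spans the same range of log2 units and black bars show the mean ± SD of 5 kidneys. Knockout kidneys lie above controls in the upper 8 panels (differences 0.52 for Rpl12 to 0.22 for Rps3a1) and among them in the lower 4 (-0.02 for Rpl11 to 0.04 for Rps7).

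The remaining parents include paralogues that replace or accompany a core protein in particular tissues. Of the 8 symbols measured on the paralogue list, Rps3a3 and Rps3a2, the pseudogenes named above, were past the threshold and the other 6 were not. With Rpl32l, 3 of the 12 parents outside the core were past it, and 12 of the 33 core parents. All were higher, beside 5.35% of all genes. Rpl3l, expressed in striated muscle, differed by -0.02 ± 0.05 (SE), Rpl10l and Rpl39l, both expressed in testis, by -0.03 ± 0.06 and -0.04 ± 0.05, and Rpl7l1 by -0.03 ± 0.05. The p53 target Rps27l differed by 0.07 ± 0.04 (SE), whereas the copy-derived Rps23rg1 differed by 0.01 ± 0.09. Rpl22l1 differed by 0.20 ± 0.09 (SE), with overlapping kidneys at 5.92, 6.13, 6.37, 6.08 and 6.09 in knockout, against 5.72, 6.05, 5.75, 5.94 and 6.10 in controls. Rps23rg1, which is not on that list, was not past the threshold either. The -like gene Rpl6l, a pseudogene in RefSeq, differed by -0.08 ± 0.08 (SE), the lowest value of any parent, with control 1 as its highest kidney.

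The median difference was 0.23 over the copies and 0.12 over the parents. The medians do not set copies against their own parents, because only 18 of the 51 parents that copies are named after are members. Large families, such as Rpl31 with 22 copies, Rps12 with 15 and Rpl21 with 13, weigh most on the copies' median. Past the threshold were 116 of 201, all in the higher direction (5.35% of all genes), and 188 differences were above 0 (11523 of all 30143 genes). Of the 201, 193 are pseudogenes in RefSeq and 5 transcribed pseudogenes, 2 are protein-coding (Rpl31-ps12 and Rpl34-ps1) and 1, Rps23-ps, has no entry. Copies and parents share most of their sequence, and the files do not hold the probes, so that a copy's value cannot be told apart from signal of its parent's mRNA. In 3 sets of copies every value was identical (Rpl35a-ps3, Rpl35a-ps4 and Rpl35a-ps6, then Rps12-ps6, Rps12-ps17 and Rps12-ps18, then Rps19-ps1 and Rps19-ps2). With each set counted once, 113 of 196 were past the threshold.

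Rps24-ps3 (chromosome X, 79195017 to 79195521), a copy of the gene for a small-subunit protein, had the largest difference of any member. It measured 10.96, 11.05, 11.24, 10.92 and 10.77 in knockout kidneys, against 10.14, 10.50, 10.37, 10.63 and 10.56 in controls, a difference of 0.55 ± 0.10 (SE) and a fold of 1.46. No kidneys of the groups overlapped. Rps24-ps2 differed by 0.45 ± 0.10 (SE), and Rps24 itself, at 7.83, 7.94, 7.95, 8.04 and 7.85 in knockout kidneys, against 7.58, 7.68, 7.69, 7.89 and 7.72 in controls, by 0.21 ± 0.06.

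Rpl39-ps measured 10.32, 10.53, 10.62, 10.42 and 10.40 in knockout kidneys, against 9.79 to 10.14 in controls. Its difference of 0.50 ± 0.07 (SE) stood beside 0.35 for Rpl39, with no overlap in either. Rpl29-ps5 measured 9.96, 10.02, 9.92, 10.10 and 9.71 in knockout kidneys, against 9.14, 9.54, 9.16, 9.43 and 9.74 in controls. Here control 5 lay above knockout 5, and the difference was 0.54 ± 0.11 (SE). Rpl29-ps2 differed by 0.50 ± 0.11 (SE).

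Of the 13 copies with a difference at or below 0, 11 were no brighter than 95% of the negative controls. Rpl7a-ps9 had the lowest of any member, at 4.70, 4.61, 4.79, 4.69 and 4.81 in knockout kidneys, against 4.87, 4.95, 4.83, 4.85 and 4.90 in controls (-0.16 ± 0.05 SE). That probe set lay below the median of the arrays' negative controls, 5.22, and passed the threshold in the lower direction only in the fit without knockout 5. Rpl9-ps2 (-0.10), Rps16-ps3 (-0.09), Rpl13-ps1 (-0.06) and Rps10-ps4 (-0.06) followed, none past the threshold. Rpl9-ps5 (0.08) and Rps15a-ps8 (0.01) gave the lowest signals of all copies, and Rps23-ps and Rpl10-ps1 the highest. Rps23-ps measured 13.12, 13.15, 13.13, 13.16 and 13.15 in knockout kidneys, against 13.08, 12.99, 12.94, 13.09 and 13.02 in controls, a difference of 0.12 ± 0.04 (SE) that was not past the threshold although the groups did not overlap. Rpl10-ps1 differed by 0.17 ± 0.05 (SE), past the threshold in 2 of the 10 fits that left out an array.

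Differences of copies varied by family, meaning the copies named after 1 parent, and did not always lie near the parent's own difference. The copy of Rpl35, for example, differed by -0.01 and Rpl35 itself by 0.31. Dim copies are included in the families, and 11 of the 13 copies at or below 0 were no brighter than 95% of the negative controls. Copies are named after 51 parents, and 25 of these had 3 or more copies. Of the 25, 18 had every copy above 0, where 11523 of all 30143 genes were above 0. Rpl31, of the large subunit near the tunnel exit, had 22 copies, 20 of them past the threshold in the higher direction, beside 5.35% of all genes. The 22 differences ran from 0.19 to 0.43, with a median of 0.35. The Rpl31 probe set with 1 symbol measured 7.14, 7.33, 7.16, 7.41 and 7.29 in knockout kidneys, against 7.30, 7.33, 7.18, 7.31 and 7.18 in controls, a difference of 0.01 ± 0.06 (SE). A further probe set assigned to both Rpl31 and Rpl31-ps12 measured 9.49, 9.70, 9.65, 9.67 and 9.66 in knockout kidneys, against 9.26, 9.34, 9.31, 9.50 and 9.44 in controls, a difference of 0.26 ± 0.05 (SE). The 2 probe sets that list Rpl31 therefore differ, and in the second the signal of Rpl31 cannot be told apart from that of Rpl31-ps12.

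Calls in the following families were all in the higher direction and are to be read beside 5.35% of all genes. Copies of Rps12 had 14 of 15 past the threshold, with differences from 0.14 to 0.28. All 13 copies of Rpl21 were past it, from 0.22 to 0.34, as were all 4 of Rpl19, all 3 of Rpl29 and all 3 of Rpl26. Rps19, whose human counterpart is often mutated in Diamond-Blackfan anaemia, had 9 of 13 past the threshold, with a median of 0.23 beside 0.13 for Rps19 itself, and its 4 others ran from -0.05 to 0.23. By limma 0 of 8 copies of Rpsa, 0 of 7 of Rpl9 and 0 of 3 of Rps2 were past the threshold. These counts lie near the share over all genes, and nothing is read from them. Medians of the 3 families were 0.09, 0.07 and 0.05, with 0, 1 and 0 copies at an unadjusted limma p under 0.05. The Rpsa copies thus stood near Rpsa itself (0.03). Copies of Rps15a were divided, Rps15a-ps3 and Rps15a-ps7 at 0.42 and 0.37 and the other 6 between 0.01 and 0.20. Of 18 families whose parent is a member, 13 had a median of copies above the parent's difference.

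**Figure D3:**
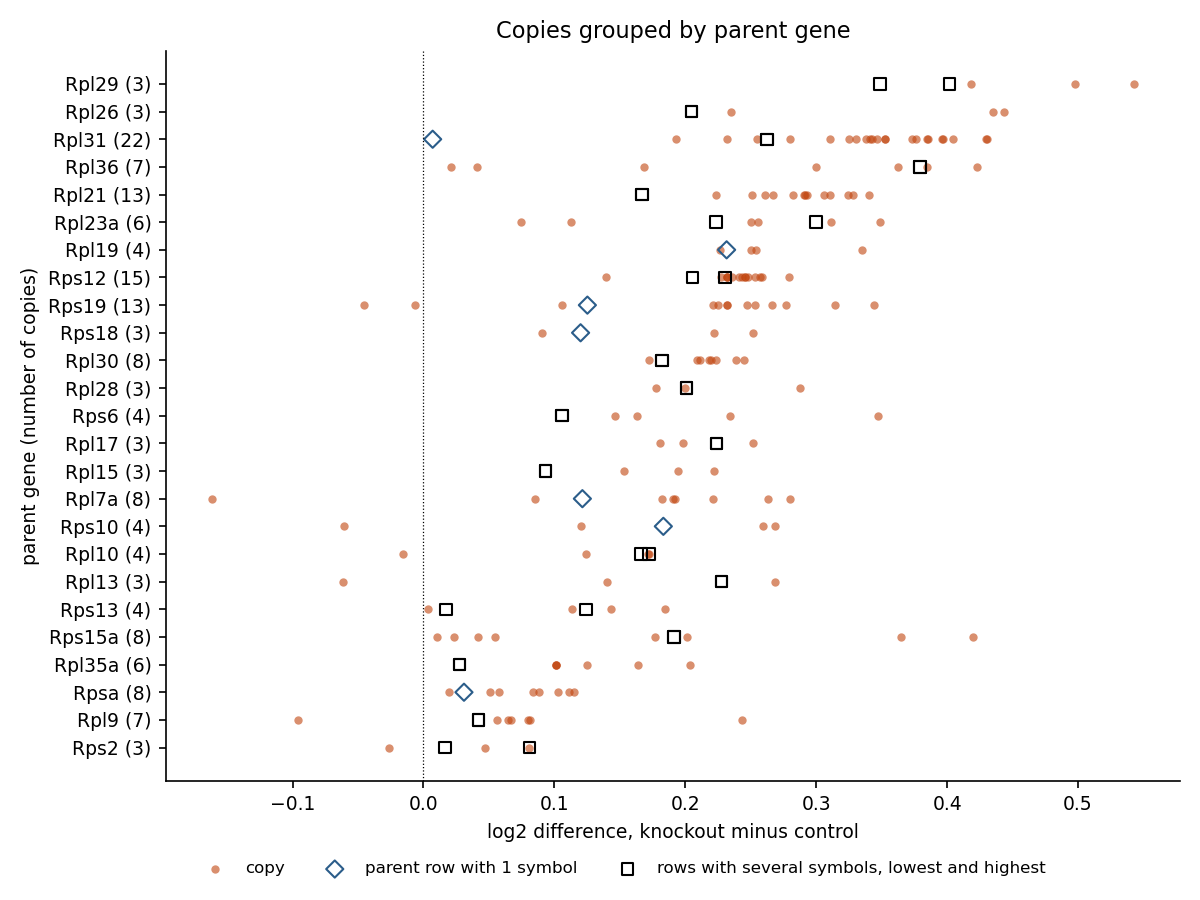
Log2 difference (knockout minus control) of every copy (orange dots) in the 25 families with 3 or more copies, with the parent's own probe set (blue diamonds) and the lowest and highest probe set with several symbols that lists the parent (black squares). Some families lie close together, as Rps12 (0.14 to 0.28) and Rpl21 (0.22 to 0.34), and others spread widely, as Rpl7a (-0.16 to 0.28), Rps15a (0.01 to 0.42) and Rpl36 (0.02 to 0.42). Dim copies are included, and the lowest of Rpl7a, Rpl7a-ps9, lay below the median negative control. Medians run from 0.50 for Rpl29 to 0.05 for Rps2.

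Similarity within families was also seen between kidneys of the same group. After each group's mean was removed, 375 pairs of copies of 1 parent, both brighter than 95% of negative controls, had a median correlation over the 10 kidneys of 0.88, and 9078 pairs of copies of different parents one of 0.38. Over all copies, dim ones included, these medians were 0.76 (740 pairs) and 0.24 (19360 pairs). Families with many copies give the most pairs and weigh most on the medians within families, Rpl31 with 22 copies above all. Pairs of copies with identical values are among the 740. A copy and its own parent's probe set, again with dim copies included, had a median of 0.42 over 78 pairs. The 10 points of a pair share their arrays and normalization, and copies of 1 parent share sequence. Among these same pairs of bright copies, the median gap between the 2 differences was 0.03 within a family and 0.11 between families.

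Copies were spread over 20 chromosomes, each with at least 1 copy past the threshold and a median above 0. Chromosome X held 29 copies, 17 past the threshold, and chromosome 11 held 17, with 4 past it. The share past it in the higher direction was 57.7% over all copies and 5.35% over all genes. Families were not told apart in these counts, and a part of the chromosome in them was not tested.

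Of the copies, 138 were brighter than 95% of the negative controls, and 100 of these were past the threshold (median 0.25). Of the other 63 it was 16 (median 0.12), all calls being higher, beside 5.35% of all genes. The 15 members whose mean over the 10 arrays was no higher than the median negative control were all copies, and 0 were past the threshold by limma, with 4 at an unadjusted p under 0.05. The top 10% of all genes by signal held 123 members, and there 89 members were past the threshold in the higher direction, against 12.7% of genes outside the family. Medians in that range were 0.25 for members and 0.01 for other genes.

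**Figure D4:**
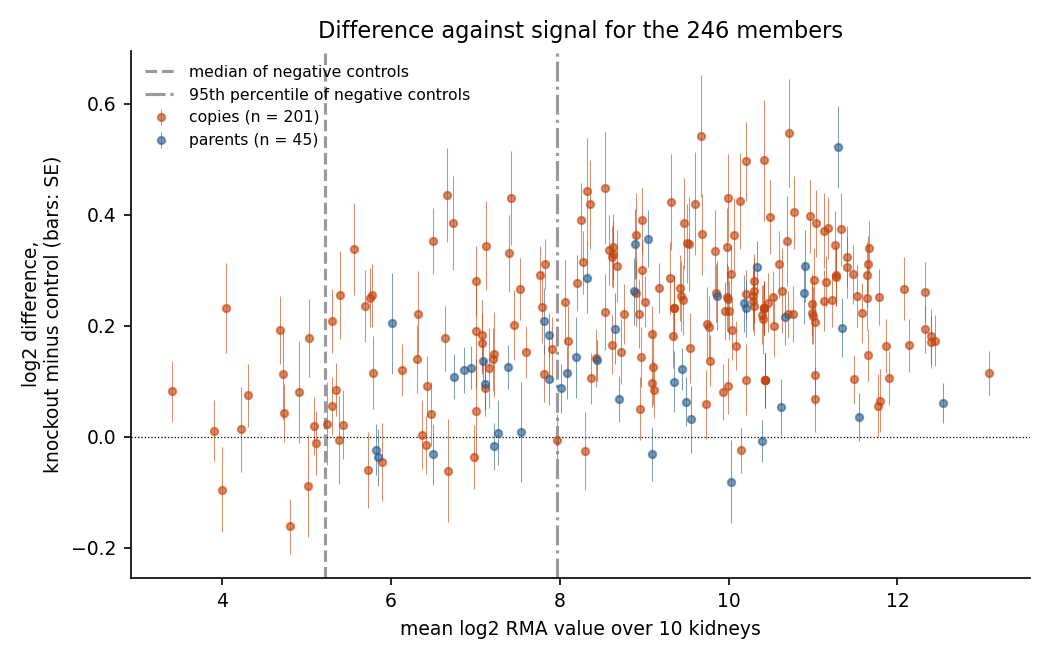
Log2 difference (knockout minus control, bars SE) against mean log2 RMA value over the 10 kidneys for 201 copies (orange) and 45 parents (blue), with the median and the 95th percentile of negative control probe sets as grey lines. Most of the 138 copies right of the 95th percentile lie well above 0, whereas dim copies scatter around lower values, Rpl7a-ps9 (-0.16) lowest.

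Probe sets assigned to several symbols stood outside the rule, and 59 of them list a ribosomal protein. Of these, 31 were past the threshold in the higher direction and 0 in the lower (5.23% and 2.6% of all 32750 named probe sets), with a median of 0.17. Identical values were counted more than once here. The probe set of Rps12-ps11 and Rps12-ps13 equals that of Rps12-ps15 and Rps12-ps13 in every kidney (both 0.24). That of Rps12-ps12 and Rps12-ps13 likewise equals that of Rps12-ps14 and Rps12-ps13 (both 0.21), and all of these were past the threshold. Rpl12 has a pair of probe sets with several symbols besides its own. The one shared with Gm9396 differed by 0.59 ± 0.08 (SE), at 11.15, 11.35, 11.33, 11.10 and 11.06 in knockout kidneys, against 10.39, 10.62, 10.55, 10.77 and 10.70 in controls, and the one shared with Snora65 by 0.29 ± 0.05 (SE). Rps27, of the small subunit, is no member by the single-symbol rule. A pair of probe sets shared by Rps27 and its retrocopy Rps27rt differed by 0.54 ± 0.11 and 0.45 ± 0.08 (SE). Probe sets of Rps2 and of Rps6, the substrate of S6 kinases, gave 0.02 to 0.08 and 0.11. The probe set of Rps4l and Rps4y2 was lowest at -0.08. With the 33 such probe sets that list exactly 1 ribosomal protein gene counted for it, 26 of 69 parents were past the threshold in place of 15 of 45. With each array centred on its own median it was 7 of 45, namely Rpl12, Rpl32l, Rpl35, Rpl39, Rps15, Rps20 and Rps3a3.

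Kidneys differed in most members together. The median deviation of the copies from the control mean was 0.18, 0.24, 0.29, 0.25 and 0.15 in knockouts 1 to 5, against -0.04, 0.01, -0.06, 0.07 and 0.02 in controls 1 to 5. For the parents it was 0.09, 0.16, 0.18, 0.10 and 0.12 in knockouts 1 to 5, against -0.02, 0.00, -0.03, 0.05 and -0.01 in controls 1 to 5. Both medians were higher in every knockout kidney than in any control, and knockout 3 was the highest in both. Between 216 and 229 of the 246 members lay above the control mean in each knockout kidney, whereas in controls the number ran from 51 in control 3 to 206 in control 4. The controls too thus differed from each other in many members at once.

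**Figure D5:**
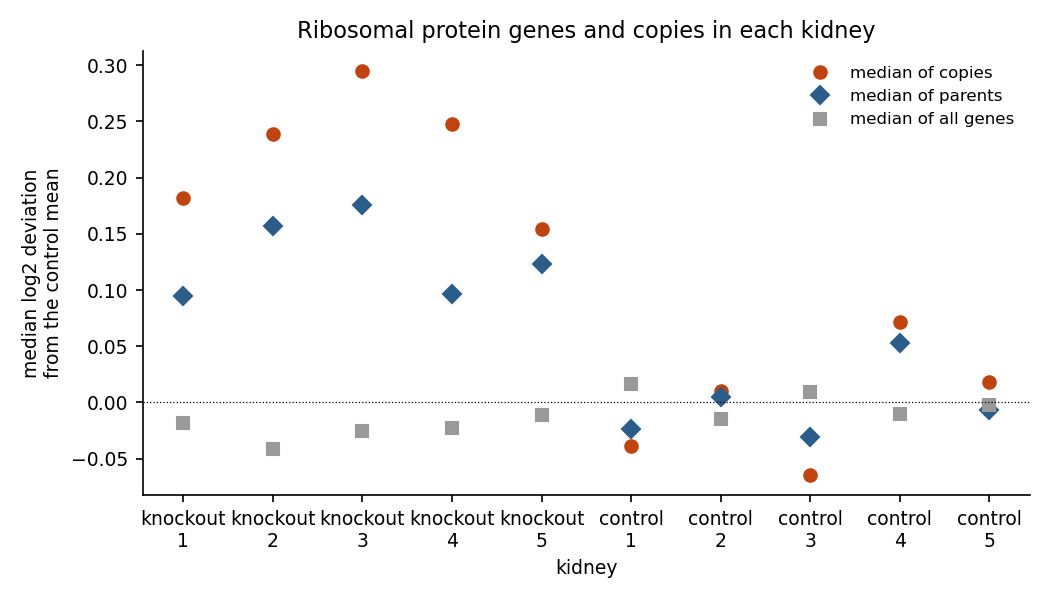
Median log2 deviation from the mean of the 5 controls in each kidney, for the 201 copies (orange circles), the 45 parents (blue diamonds) and all 30143 genes (grey squares). Copies reach 0.15 to 0.29 in the 5 knockout kidneys, parents 0.09 to 0.18 and all genes -0.04 to -0.01, while in controls copies run from -0.06 to 0.07.

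Markers of other cell types differed between the same groups. Of 15 macrophage genes, 14 were higher in knockout kidneys, with summed signals of 2916 to 5312 against 1762 to 2146 in controls, and 9 of 9 fibroblast genes, with 4675 to 8452 against 2421 to 3129. Lum was the fibroblast gene not above the median negative control in control kidneys. Of 8 genes of the thick ascending limb, a segment where the Cdh16 promoter is active, 7 were lower and 1 higher, with summed signals of 16389 to 18120 in knockout and 24008 to 26293 in control kidneys. Lymphocyte genes were higher in 3 of 11, proximal tubule genes lower in 3 of 10, and distal tubule and collecting duct genes higher in 2 and lower in 4 of 12. Of the 3 lymphocyte genes, Klrd1 (mean 4.14 in knockout and 3.72 in control kidneys) was not above the median negative control in control kidneys. Podocyte and endothelial genes passed in 0 of 5 and 0 of 7 by limma, with 0 and 1 at an unadjusted p under 0.05. In knockouts 1 to 5 the macrophage sums were 4911, 4548, 5312, 3495 and 2916, and in controls 1 to 5 they were 2146, 1962, 1992, 1762 and 1911. These sums, like the copies' medians, were higher in every knockout kidney than in any control. Among knockouts, both were highest in knockout 3 and lowest in knockout 5. Other kidneys were ordered differently by the 2 measures. Knockout 4 had a lower sum than knockout 1 and a higher median, and control 4 had the lowest sum and the highest median of the controls. The part of these cell types in the differences of ribosomal protein genes was not tested, and in whole kidney fewer cells of a type cannot be told apart from less RNA per cell.

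Genes that act with ribosomal proteins were examined by list, each count to be read against 5.35% of all genes higher and 2.67% lower. Fau, which encodes a small-subunit protein fused to a ubiquitin-like one, was higher, at 10.64, 10.79, 10.81, 10.64 and 10.68 in knockout kidneys, against 10.45, 10.57, 10.53, 10.59 and 10.48 in controls (0.19 ± 0.05 SE, limma adjusted p = 0.032). Of 19 elongation factors and other genes with TOP mRNAs, 5 were higher and 0 lower by limma, 0 of them lower at an unadjusted p under 0.05, with a median of 0.07. Fau is on this list too, and without it 4 of 18 were higher. Eef1b2, an exchange factor for elongation factor 1A, rose by 0.28 ± 0.05 (SE, limma adjusted p = 0.0039), Btf3, a subunit of the nascent polypeptide-associated complex, by 0.25 ± 0.05 (adjusted p = 0.010 by limma) and Eif3k by 0.19 ± 0.05 (adjusted p = 0.022 by limma). In contrast, the abundant elongation factors Eef1a1 and Eef2 differed by 0.04 and -0.02, neither past the threshold.

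Few of the factors that build ribosomes were past the threshold. Of 66 ribosome biogenesis genes, 1 was higher and 0 lower by limma, with 6 at an unadjusted p under 0.05 and a median of -0.01. The 1 was Eif6, which keeps the subunits apart until the large one is mature (0.17 ± 0.04 SE, limma adjusted p = 0.020). Of 14 RNA polymerase I genes, which serve ribosomal RNA transcription, 0 passed by limma, 0 of them at an unadjusted p under 0.05, with Taf1a at -0.09 and Polr1d at 0.07. Of 23 initiation factors, 0 passed by limma and 4 had an unadjusted p under 0.05, with Eif4a1 at 0.11 and Eif4ebp1, an mTORC1 target, at 0.17. Of 6 S6 kinase genes, 0 passed by limma and 0 had an unadjusted p under 0.05, with Rps6kc1 at -0.07 and Rps6ka5 at -0.08.

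Proteins of the mitochondrial ribosome, which translates the few mRNAs of the mitochondrial genome, had a median of -0.07, beside -0.03 over all genes. Of 75, 0 were higher by limma (1 at an unadjusted p under 0.05) and 3 lower (4%, near the 2.67% of all genes). At an unadjusted limma p under 0.05, 17 were lower. Differences were above 0 for 15 of the 75, beside 11523 of all 30143 genes. Mrpl11 fell by 0.24 ± 0.06 (SE, limma adjusted p = 0.025), Mrps14 by 0.18 ± 0.04 (SE, limma adjusted p = 0.022) and Mrpl46 by 0.17 ± 0.04 (SE, limma adjusted p = 0.027). Mrps14 measured 8.30, 8.35, 8.20, 8.30 and 8.34 in knockout kidneys, against 8.54, 8.52, 8.48, 8.40 and 8.46 in controls, so that every knockout kidney was below every control.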

How the data were processed

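Total RNA of 10 whole kidneys was hybridised to Affymetrix arrays, 1 per kidney. Per the submitters' processing notes the authors used RMA and the mm10 build; versions were not given in the sources used here. The deposited table holds log2 values, a scale taken from their range. Of 72688 probe sets, 30604 had 1 symbol in the platform annotation, 2146 several and 39938 none, and probe sets of a gene were averaged (30143 genes). In 820 rows the symbol was updated through RefSeq. The comparison was fitted with limma 3.58.1 in R 4.3.3 (lmFit, eBayes with a variance trend, two-sided, Benjamini-Hochberg over all genes), tested on simulated data. Arrays have no read depth, and their number limits the precision.

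Members and lists were chosen with earlier results of these data known. Named by rule were the paralogues, the 5 highest and 5 lowest differences and the 2 brightest and 2 dimmest of each subunit's parents and of copies, the parents of named copies, and up to 3 called genes per list; other named members and the genes with printed sequences were chosen after their values were seen. Replicate numbers were not taken to pair kidneys, because the labels do not link them and 1 of 5 same-numbered pairs correlated below 0.1 (-0.08, the others 0.10 to 0.31). Most knockout kidneys nonetheless correlated best with the control of their own number. The main fit leaves out any structure that equal numbers share, and a replicate block was therefore run as an alternative. Alternatives were quantile normalization, median centring, no variance trend, no dim genes, the brightest probe set per gene, added multi-symbol probe sets, a replicate block and each array left out. Each probe set fitted alone, core parents alone and bright copies alone were added after seeing the data.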

Additional observations from a re-analysis of the deposited data

Results flagged for a closer look

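Among 88 groups of 5 kidneys tested for a distant sample, 1 met the criterion, where chance gives about 1 in 20. Rpl10l, the testis paralogue of Rpl10, measured 6.43 in knockout 1 and 6.49 to 6.50 in the other 4 knockout kidneys. Its gap to the nearest kidney was 0.783 of the group's range, above Dixon's critical value of 0.71.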

How the results depend on the processing

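Median differences of parents and copies kept their sign under every alternative run, at 0.11 to 0.13 and 0.21 to 0.25 with single arrays left out. Higher calls then numbered 10 to 17 among parents and 82 to 121 among copies, and lower calls 0 to 0 and 0 to 1, the 1 without knockout 5. Over all genes higher calls ran from 1089 to 1942 and lower calls from 437 to 1471, with 1471 without knockout 5, 514 without knockout 1, 437 without knockout 2 or 3, 498 without control 1 and 472 without control 3. Quantile normalization gave 1300 lower calls over all genes, median centring 7 higher parents and added multi-symbol probe sets 26. With the replicate number as a block, 14 parents and 114 copies were higher, and 1826 genes higher and 955 lower in all, and 121 of the 131 members stayed past the threshold, not so Rps26, Rps3a2 and Rpl17-ps1; 4 of 5 kidneys correlated best with their own number. Of 709 values for 42 named members, 707 stayed within the spread between replicates, and Rpl4 (0.03) and Rps23-ps (0.05) moved under quantile normalization; the cause was not tested. Dim probe sets limit what 15 copies can show.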
